A study of Mus musculus with 16 samples.

Results

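Gene expression was compared between mitral cells that carried the potassium channel Kir2.1 and control mitral cells of the mouse olfactory bulb at postnatal day 6 (P6). The comparison took 8 of the 16 pools of the series: all 4 pools labelled as P6 Kir2.1 and all 4 labelled as P6 control. Both groups were olfactory bulb cells of ICR mice. The plasmids were introduced by in utero electroporation on embryonic day 12: the control group received pCAG-EYFP alone and the Kir2.1 group received pCAG-EYFP together with pCAG-Kir2.1. The fluorescent protein EYFP was thus present in every cell, and the broadly active CAG promoter drove both transgenes. Per the labels' protocols, EYFP-positive cells were collected one at a time with a glass capillary from enzymatically dissociated tissue, single-cell cDNA went through 30 PCR cycles, and cells with PCR products for EYFP and pcdh21 (the gene Cdhr1) were kept. Each array received a pool of cDNA from 10 cells, 40 cells per group in all. The labels do not say how many animals or litters gave these cells, so each p-value measures the spread between pools, part of which may be technical. The other 8 pools, 4 per treatment, were cells of the same kind at P3 and enter as the source of a shared estimate of the spread and as a second age.

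Mitral cells are the excitatory output neurons of the olfactory bulb. In the first postnatal week they grow several primary dendrites towards the glomeruli and then lose all but one, a process in which neuronal activity has a part. Kir2.1 is an inwardly rectifying potassium channel that holds the membrane near the potassium equilibrium potential, and its introduction is a common way to lower the excitability of a neuron. The comparison asks which transcripts differ in pooled mitral cells after such silencing, near the end of dendrite pruning.

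Each level is the log2 of a probe's signal over an array-wide reference, the 75th percentile of probes detected well above background on every one of the 16 arrays, so that 0 is a bright gene and values near -9 or -10 are at background. Between 34.3% and 41.1% of the probes of a P6 array were well above background. A change is the mean of the 4 Kir2.1 pools minus the mean of the 4 control pools on that log2 scale, with its standard error (SE) from limma, and a gene is called changed where the adjusted p is under 0.05. Across genes, pools of a P6 group correlated with r between 0.793 and 0.834, and pools of different groups with r between 0.764 and 0.816. All 8 pools were hybridised on 1 slide, the control pools in row 1 and the Kir2.1 pools in row 2, and a row effect cannot be told apart from that of the treatment. The probe of Kcnj2, the mouse gene of Kir2.1, was at background on all 16 arrays. It is unknown if that probe lies within the introduced cDNA, so it gives no check of the labels. Cdhr1, the marker used to keep the cells, read 2.98, 3.23, 2.68 and 3.45 in the control pools and 3.94, 3.70, 3.41 and 3.93 in the Kir2.1 pools. It was among the brighter genes in every pool, the 2 groups overlapped slightly, and it did not pass the test (change 0.66, adjusted p = 0.235). Tbx21, a transcription factor of mitral and tufted cells, was well above background in all 8 pools, at -0.30, -0.12, -0.52 and 0.71 in the control pools and 0.70, 0.45, 0.99 and 1.84 in the Kir2.1 pools. The groups overlapped in it as well (change 1.05, adjusted p = 0.256).

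Of 12035 named genes tested, 217 (1.8%) were called, 114 higher (0.947%) and 103 lower (0.856%) with Kir2.1, and the 2 groups of pools did not overlap in 213 of them. The pools did not overlap in 973 (8.08%) of all tested genes, and 2068 (17.2%) had an unadjusted p under 0.05. These shares are the background for every count of a gene list below. The lists were chosen with earlier results of these data known, and no list was tested as a set. The changes were of 2 kinds. Of the 7048 genes that were well above background on all 8 pools, 122 were called, 60 higher and 62 lower, with a median size of 1.81, and 50 of these moved by at least 2 on the log2 scale. Another 91 calls came from 3752 genes that were well above background on 4 to 7 of the 8 pools, with a median size of 4.18. Of the 12035 genes, 42 had a tested probe well above background in all 4 pools of 1 group and in none of the other. Of these, 27 were detected in the Kir2.1 pools and 15 in the control pools, and 31 of the 42 were called. The 42 were picked by the same signals that the test used, so these calls are no separate support. In bulk cDNA of 10 cells, fewer cells with a transcript and less of it in each cell cannot be told apart.

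**Figure D1:**
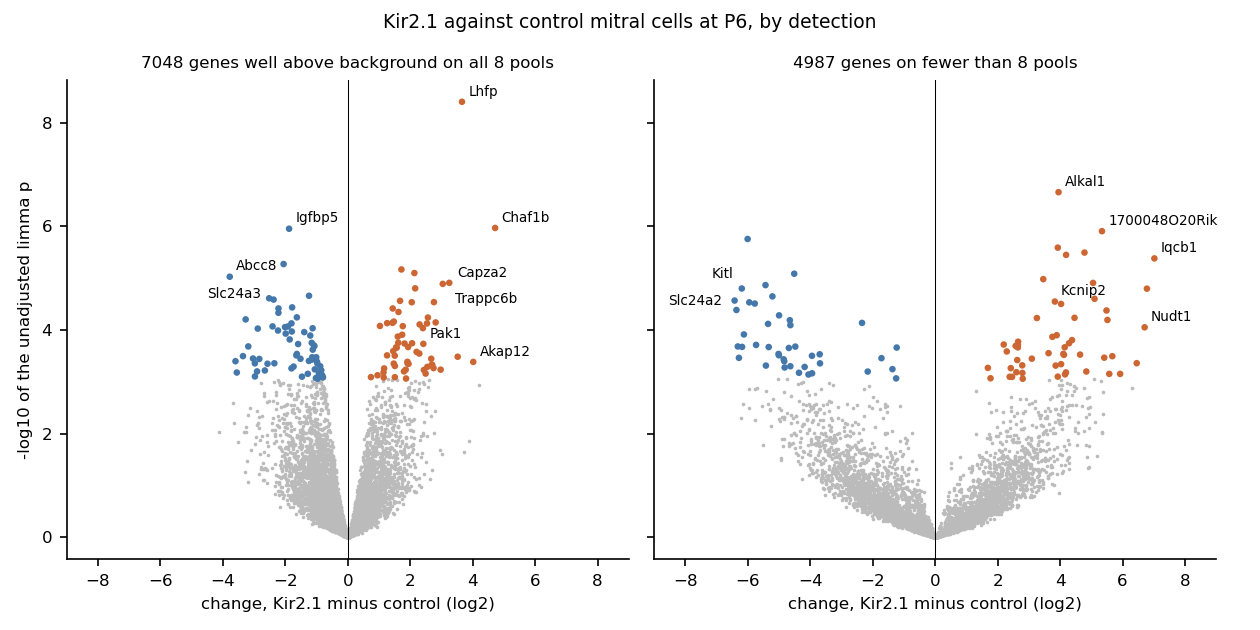
Change with Kir2.1 at P6 (log2, x axis) against -log10 of the unadjusted limma p (y axis) for genes well above background on all 8 pools (left) and on fewer pools (right), with called genes in orange (higher) or blue (lower) and the rest in grey. Called genes on the left, with a median size of 1.81, moved less than the others, and the lowest p belonged to Lhfp.

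How many genes were called rested on how the spread was estimated. The joint fit of 16 arrays used 1 spread per gene, which was smaller at P3 (root mean square SD 1.18 in control and 1.33 in Kir2.1 pools) than at P6 (1.51 and 1.52). One variance factor per group left 62 calls, all among the 217, and a fit of the 8 P6 arrays alone left 10, also all among the 217. Those 10 were Pcdhb16, Hps6, Chaf1b, Lhfp, Ccdc80, Cdkn2b, Alkal1, 1190005I06Rik, 1700048O20Rik and Iqcb1, and no other gene named below passed in that fit. Alkal1 met the detection filter, at least 4 of 16 arrays well above background, only through the Kir2.1 pools at P6. Without Kir2.1 pool 4 there were 105 calls, without Kir2.1 pool 1 there were 106, and without Kir2.1 pool 2 or control pool 4 there were 135 and 123. The balance of directions also moved with the scaling: 159 higher and 63 lower when arrays were scaled over all probes, 153 and 63 in the authors' value table, and 140 and 286 after normexp background correction. Those scalings put the median change of all genes at 0.12, 0.11 and -0.20, against -0.09 here. Across 12 other settings and 16 fits that each left out 1 pool, 40 of the 217 calls, 23 higher and 17 lower, ended in none of the fits in which the gene was tested. The 12 settings leave out the fit of the P6 arrays alone and a fit with the replicate number as a block, in which 5 and 13 of these 40 genes were called. For genes described below by their role, calls that ended in some of the 28 fits are given with the number of settings or pools and the highest adjusted p. Among the called genes named below the 2 groups of pools did not overlap, except in Ret. For genes named by their change, bound or p this was a condition of being named and not a result. It was no condition for members of the lists.

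**Figure D2:**
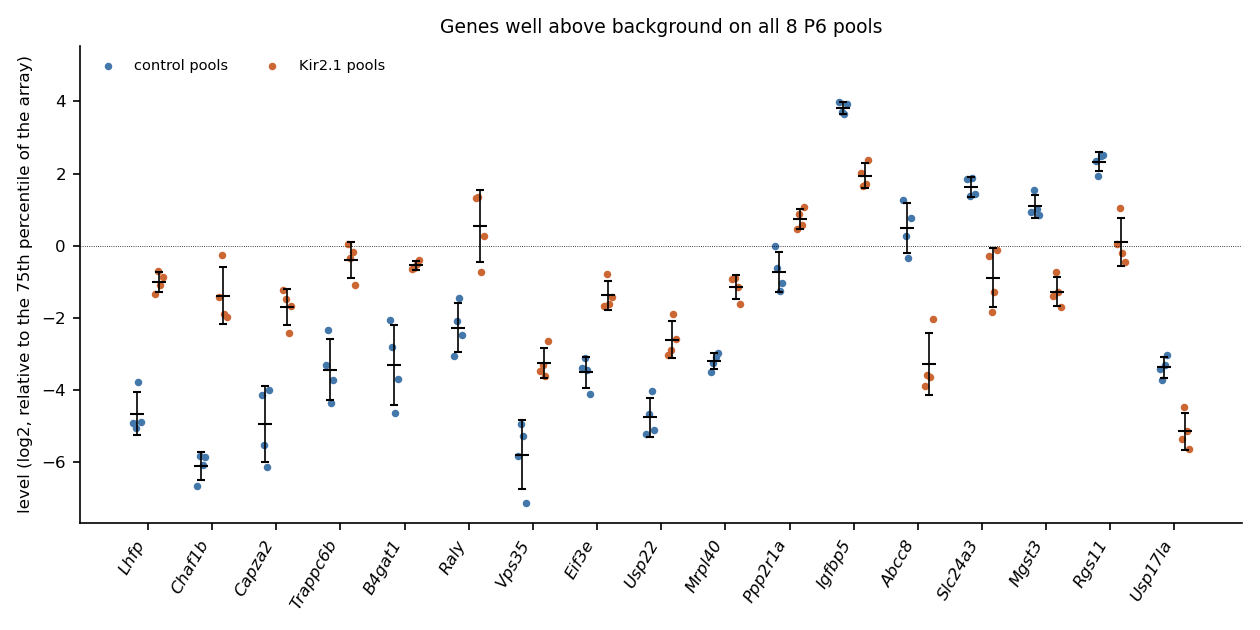
Log2 level (y axis) in each of the 4 control pools (blue) and 4 Kir2.1 pools (orange) for 17 genes that were well above background on all 8 pools and whose calls ended in none of 28 other fits, with the mean and SD of each group in black. Those 28 do not include the fit of the P6 arrays alone, in which only Lhfp and Chaf1b of these genes were called, or the replicate block. The groups of pools did not overlap in any of the 17 genes, a condition for naming those not taken from the lists. Igfbp5 was the brightest of the 6 that were lower with Kir2.1.

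Markers of other cells differed between the groups, and these values belong beside every gene below that such cells express. The interneurons of the bulb are GABAergic, and 18 of 23 listed markers of them were tested. These summed on the linear scale to 12.9, 7.30, 7.24 and 6.31 in the control pools and to 5.26, 6.36, 3.35 and 4.09 in the Kir2.1 pools. All but 1 of the Kir2.1 pools thus lay below every control pool. Of the 18 genes, 16 had a negative change at P6, and the median change was -1.995 at P6 and -0.14 at P3. At an unadjusted p under 0.05 by limma there were 11 (61.1%), against 17.2% of all genes. Only Penk was called, while normexp gave 5 lower and 1 higher. Gad1, an enzyme of GABA synthesis, read -0.13, -0.48, -3.37 and -2.69 in the control pools and -9.91, -4.66, -2.99 and -6.88 in the Kir2.1 pools (change -4.44, adjusted p = 0.143). Gad2, the other such enzyme, read -0.15, 0.39, -2.47 and -1.61 in the control pools and -1.74, -3.44, -5.48 and -8.15 in the Kir2.1 pools (change -3.74, adjusted p = 0.161). Dlx6, Pax6, Calb2, Calb1 and Prokr2 had no probe well above background on any P6 array. The 7 tested of 13 markers of olfactory sensory neurons, whose axons end on mitral cells, summed to between 9.36 and 12.02 in control and between 6.84 and 7.85 in Kir2.1 pools, with no overlap. On the mean of their log2 levels the groups did overlap, at -3.35 to -2.45 in control and -4.04 to -2.75 in Kir2.1 pools. At an unadjusted p under 0.05 by limma there were 3 of the 7 (42.9%), and the median change was -0.26. Some of them, such as Gap43 and Gnal, are not restricted to that cell type. Of the 13 listed, Gng8, Cnga4, Stoml3, Ano2, Rtp1 and Ncam2 had no probe well above background on any P6 array. The part of these cells' RNA in the results was not tested.

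The summed levels of the other marker lists overlapped between the groups. Astrocyte and radial glia markers (12 of 15 tested) summed to between 14.95 and 18.3 in control pools and between 7.37 and 22.9 in Kir2.1 pools, and ensheathing cell markers (11 of 13) to between 12.15 and 15.5 and between 3.26 and 31.1. The single highest Kir2.1 pool in both was pool 3. Microglia markers (8 of 13) lay between 0.639 and 2.33 and between 0.415 and 1.34, with the defining genes Cx3cr1, C1qa, P2ry12 and Trem2 at background on every P6 array. On the mean log2 level the microglia markers did not overlap, at -5.42 to -3.30 in control and -6.81 to -5.55 in Kir2.1 pools, a difference of -1.63. Oligodendrocyte lineage markers (12 of 14) lay between 1.64 and 7.59 and between 1.25 and 6.04, vascular and blood cell markers (11 of 17) between 1.15 and 2.92 and between 0.813 and 6.36. Mitral and tufted cell markers (19 of 22) summed to between 23.6 and 40.1 in control and between 29.9 and 46.1 in Kir2.1 pools. Of these 19 genes, 11 had a positive and 8 a negative change, with a median of 0.57. At an unadjusted p under 0.05 by limma there were 7 (36.8%), against 17.2% of all genes. Only 6 of 14 markers of dividing cells were tested, at summed levels of at most 0.90 in every pool, and Top2a, Cdk1 and Birc5 were at background throughout. At that unadjusted p there were 2 of 6 dividing cell, 2 of 8 microglia, 2 of 12 oligodendrocyte lineage and 1 of 11 vascular markers. Astrocyte and ensheathing cell markers had none.

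**Figure D3:**
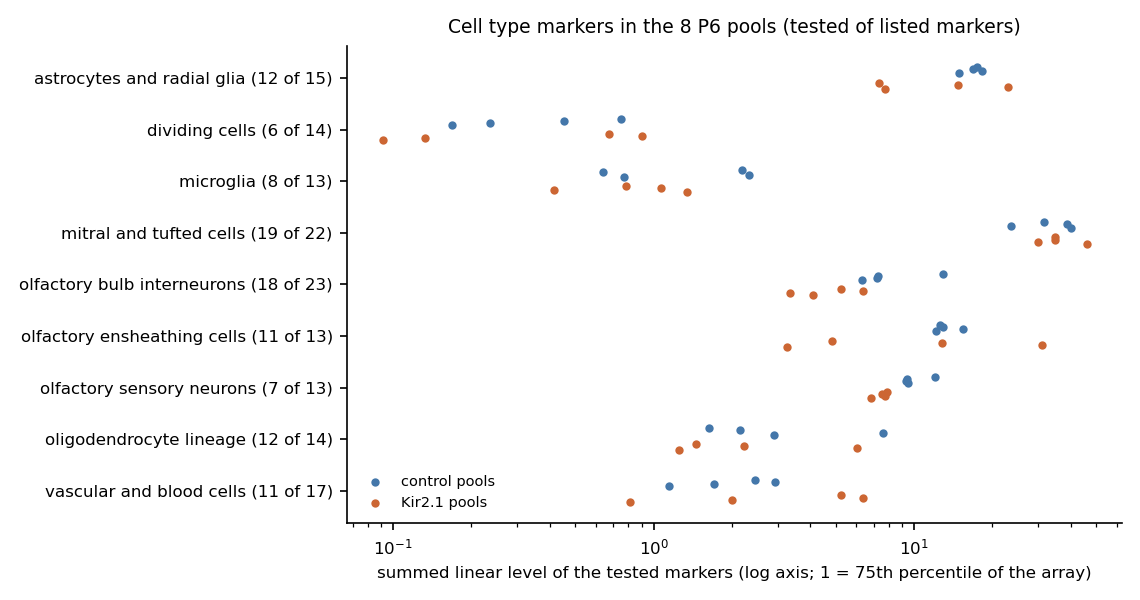
Summed linear level of the tested markers of each cell type (x axis, log scale, 1 is the 75th percentile of the array) in each control pool (blue) and Kir2.1 pool (orange) at P6. Interneuron markers were lower in the Kir2.1 pools except for 1 pool at 6.36 above the lowest control pool at 6.31, and the sums of olfactory sensory neuron markers did not overlap, although their mean log2 levels did.

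Regulators of the actin cytoskeleton, which shapes and retracts dendrites, supplied 4 called genes, all higher with Kir2.1, among the 82 tested small GTPases of the cytoskeleton, their effectors and actin regulators. That is 4.88% of the list against 1.8% of all genes called in either direction, with 0 called lower. The median change of the list was 0.14 against -0.09 for all genes. Capza2, a subunit of the protein that caps the growing end of actin filaments, read -4.15, -5.54, -6.13 and -3.99 in the control pools and -1.24, -1.47, -2.42 and -1.67 in the Kir2.1 pools. The highest control pool lay 1.57 below the lowest Kir2.1 pool, and the gene rose by 3.25 (SE 0.49, adjusted p = 0.0069), a 9.52-fold difference. Pak1, a kinase activated by Rac and Cdc42 that acts on actin turnover, read -1.56, -1.39, -2.85 and -0.42 in the control pools and 0.96, 0.58, 0.71 and 1.21 in the Kir2.1 pools. The rise was 2.42 (SE 0.48, adjusted p = 0.0261). Dstn, the actin-severing protein destrin, rose by 1.51 (SE 0.33, adjusted p = 0.039), with control pools at -2.02, -2.88, -1.29 and -2.63 and Kir2.1 pools at -0.06, -1.04, -1.0 and -0.69. Arpc5, a subunit of the Arp2/3 complex that nucleates branched filaments, rose by 1.15 (SE 0.26, adjusted p = 0.0448), from 0.37 ± 0.36 to 1.51 ± 0.38 (SD, n = 4), and a second probe of it rose by 3.41 (adjusted p = 0.0446). All 4 genes were well above background on every P6 array, and their groups did not overlap. The call of Pak1 ended under 1 of 12 settings (adjusted p up to 0.0644) and without Kir2.1 pool 1 (0.0646) and Kir2.1 pool 4 (0.0601), and that of Dstn under 2 of 12 settings (adjusted p up to 0.0766) and without 12 of 16 pools (up to 0.0956 without control pool 4). The call of Arpc5 ended under 3 of 12 settings (adjusted p up to 0.0976) and without 14 of 16 pools (up to 0.101 without Kir2.1 pool 1).

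Of 34 tested genes of the Arhgap and Arhgef families, which switch such GTPases off or on, 2 were lower and none higher (5.88% against 1.8% of all genes called in either direction). With normexp 2 were lower and 1 higher, and 1 was lower and 1 higher in the value table or with scaling over all probes. Arhgap22, which switches off the GTPase Rac, was well above background in all 4 control pools and in no Kir2.1 pool. It read -3.30, -2.0, -3.79 and -7.25 in the control pools and -8.54, -10.14, -9.52 and -8.99 in the Kir2.1 pools, at least 14.2-fold lower (adjusted p = 0.0095). Its change at P3 had the same sign (-4.34). Arhgap35, which encodes the GTPase-activating protein p190, stayed detected everywhere and went from 0.23 ± 0.46 to -1.36 ± 0.63, a fall by 1.59 (SE 0.31, adjusted p = 0.0261). The call of Arhgap35 ended under 3 of 12 settings (adjusted p up to 0.0557) and without control pool 4 (0.0651) and Kir2.1 pool 4 (0.0623).

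Among 222 tested solute carriers, which move ions and metabolites across membranes, 3 were called, all lower with Kir2.1. That is 1.35% of the family, near the 1.8% of all genes called in either direction. The 3 genes encode sodium-calcium exchangers. Slc24a3, a potassium-dependent exchanger, was bright in every control pool and read 1.86, 1.36, 1.88 and 1.42 in the control pools and -0.28, -1.84, -1.29 and -0.12 in the Kir2.1 pools, a fall by 2.52 (SE 0.40, adjusted p = 0.00995). Slc24a2, the related exchanger of neurons, read -1.06, 0.23, -3.33 and -1.58 in the control pools and -9.97, -6.15, -8.49 and -6.82 in the Kir2.1 pools, which spans the range from a bright gene to background, and fell by 6.42 (SE 1.04, adjusted p = 0.0103), with 2 of 4 Kir2.1 pools well above background. Slc8a3, a potassium-independent exchanger, was the brightest and moved least, from 2.32 ± 0.26 to 1.43 ± 0.09, a fall by 0.89 (SE 0.20, adjusted p = 0.046). Its second probe gave -0.95 (adjusted p = 0.438). The call of Slc8a3 ended under 5 of 12 settings (adjusted p up to 0.163) and without 14 of 16 pools (up to 0.107 without control pool 4). The median change of the solute carriers was -0.41, with 150 of 222 negative, and it stayed below that of all genes in each of the 5 other scalings, by 0.16 to 0.32.

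Abcc8 encodes SUR1, the sulfonylurea receptor that joins Kir6 subunits in ATP-sensitive potassium channels. It read 1.27, 0.27, -0.33 and 0.76 in the control pools and -3.89, -3.59, -3.64 and -2.02 in the Kir2.1 pools. No pool came within 1.69 of the other group, and the gene fell by 3.78 (SE 0.55, adjusted p = 0.00621), a 13.7-fold difference. A second probe fell by 4.52 (SE 0.63, adjusted p = 0.00499). Among 48 tested genes of the potassium channel families, 1 was higher and none lower, while 35 of the 48 had a negative change, with a median of -0.67. The called gene was Kcnip2, an auxiliary subunit of Kv4 channels, which read -6.92, -5.90, -8.69 and -9.48 in the control pools and -4.25, -3.12, -4.57 and -3.75 in the Kir2.1 pools. This was a rise by 3.83 (SE 0.62, adjusted p = 0.0103). Only 2 of its 4 control pools were well above background. S100a5, a calcium-binding protein that olfactory sensory neurons also express and whose fall went with that of the summed markers of those neurons above, read 0.64, 1.03, 0.69 and -1.03 in the control pools and -3.63, -1.98, -2.53 and -4.90 in the Kir2.1 pools and fell by 3.59 (SE 0.77, adjusted p = 0.0357). Of 39 tested genes of calcium stores and calcium buffers none was called (1 lower with normexp), and 6 (15.4%) had an unadjusted p under 0.05 against 17.2% of all genes. The lowest p was that of Trpv2, a cation channel (change -3.83, adjusted p = 0.078). Rgs11, a regulator that shortens signalling by inhibitory G proteins, was bright, read 2.36, 1.94, 2.49 and 2.51 in the control pools and 0.04, 1.04, -0.20 and -0.46 in the Kir2.1 pools. The gene fell by 2.22 (SE 0.38, adjusted p = 0.013), as the 1 called of 14 tested genes of its family. The call of S100a5 ended under 2 of 12 settings (adjusted p up to 0.101) and without 7 of 16 pools (up to 0.0834 without Kir2.1 pool 1).

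Among secreted peptides and their receptors, 2 of 27 tested genes were lower and none higher (7.41% against 1.8% of all genes called in either direction), while normexp gave 4 lower and 2 higher. Nts, which encodes the peptide neurotensin, was bright in control pools and read 0.72, 0.52, -0.36 and 0.02 in the control pools and -1.50, -0.46, -2.10 and -2.23 in the Kir2.1 pools, a fall by 1.80 (SE 0.40, adjusted p = 0.0412). Penk, which encodes proenkephalin and is a marker of bulb interneurons, read -0.17, -1.23, -7.16 and -3.80 in the control pools and -8.09, -9.85, -9.67 and -10.04 in the Kir2.1 pools. In the Kir2.1 pools it was not well above background, which gives at least 28.4-fold lower (adjusted p = 0.0269), and 3 of 4 control pools were well above it. The summed interneuron markers above, which include Penk itself, moved the same way. Scg2, a granin of dense-core vesicles, read -0.14, -0.44, -1.30 and -0.83 in the control pools and -5.52, -3.31, -2.94 and -3.06 in the Kir2.1 pools, a fall by 3.03 (SE 0.64, adjusted p = 0.0337). At P3 its change was -5.61 (SE 0.64, adjusted p = 0.0127), with 2 of 4 Kir2.1 pools well above background. Of the release machinery, Rims2, an active zone protein, fell by 2.65 (SE 0.60, adjusted p = 0.0432), with control pools close together at -0.81, -0.64, -1.23 and -0.82 and Kir2.1 pools spread over -4.89, -3.54, -3.89 and -1.78. Dnajc5, the vesicle chaperone cysteine string protein, was very bright and went from 3.85 ± 0.16 to 3.0 ± 0.25, a fall by 0.85 (SE 0.19, adjusted p = 0.0429). Its other probes gave -0.53 (adjusted p = 0.924) and -0.70 (adjusted p = 0.884). The call of Nts ended under 4 of 12 settings (adjusted p up to 0.0888) and without 12 of 16 pools (up to 0.0916 without Kir2.1 pool 4), and that of Penk under 1 of 10 settings (adjusted p up to 0.0654) and without Kir2.1 pool 2 (0.0576), Kir2.1 pool 3 (0.0519) and Kir2.1 pool 4 (0.0617). The call of Scg2 ended under 3 of 12 settings (adjusted p up to 0.0888) and without 6 of 16 pools (up to 0.073 without Kir2.1 pool 1), and that of Rims2 under 2 of 12 settings (adjusted p up to 0.11) and without 12 of 16 pools (up to 0.0956 without Kir2.1 pool 1). The call of Dnajc5 ended under 5 of 12 settings (adjusted p up to 0.817) and without 14 of 16 pools (up to 0.0985 without Kir2.1 pool 1).

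On the receiving side of the synapse, none of 29 tested glutamate receptor and auxiliary subunit genes was called, with a median change of -0.35. At an unadjusted p under 0.05 there were 9 (31.0%), against 17.2% of all genes. This count of 0 depended on the scaling: 2 were called higher with normexp, with scaling over all probes and in the value table, and 1 with signals raised to a floor. Gria1, a subunit of AMPA receptors, came nearest, at -5.65, -3.33, -4.53 and -3.96 in the control pools and -2.08, -1.72, -3.42 and -2.12 in the Kir2.1 pools. Its 2 groups overlapped, with a change of 2.04 (SE 0.49, adjusted p = 0.0537). None of 30 tested postsynaptic scaffold genes passed here or in the 5 other scalings, with 5 (16.7%, near the share of all genes) at an unadjusted p under 0.05 and a median change of -0.64. There the lowest p was that of Dlgap4, a scaffold protein of the postsynaptic density (change -0.89, adjusted p = 0.115). Of 20 tested receptors for monoamines, acetylcholine, purines and cannabinoids none was called and 2 had an unadjusted p under 0.05. Adra2b, an adrenergic receptor, had the lowest p (change -0.57, adjusted p = 0.159).

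Secreted factors and their receptors included both brighter and dimmer genes. Igfbp5, which binds insulin-like growth factors, was bright in every pool and read 3.99, 3.71, 3.65 and 3.92 in the control pools and 2.03, 1.65, 1.71 and 2.39 in the Kir2.1 pools. The control pools spanned 0.34 and the Kir2.1 pools 0.74, less than the 1.26 between the groups, and the gene fell by 1.88 (SE 0.23, adjusted p = 0.00262), a 3.67-fold difference. Of 51 tested receptor tyrosine kinases and ligands, Ret was higher and Gas6 and Kitl were lower. Gas6, the ligand of the Axl, Mertk and Tyro3 receptors, read 1.47, 0.55, 1.0 and 1.31 in the control pools and -0.94, -1.04, -1.29 and -0.06 in the Kir2.1 pools. The gene fell by 1.92 (SE 0.35, adjusted p = 0.0174). Kitl, the ligand of the receptor Kit, was detected in all 4 control pools and in no Kir2.1 pool and read -4.63, -4.99, -1.93 and -1.51 in the control pools and -10.05, -8.54, -8.81 and -10.44 in the Kir2.1 pools, at least 25.1-fold lower (adjusted p = 0.00733). Ret, the signalling receptor of the GDNF family, read -8.21, -8.93, -7.42 and -4.97 in the control pools and -2.30, -5.46, -1.44 and -2.81 in the Kir2.1 pools and rose by 4.38 (SE 0.85, adjusted p = 0.0238), although 1 control pool lay above the lowest Kir2.1 pool. The call of Gas6 ended under 1 of 12 settings (adjusted p up to 0.0557), and that of Ret under 1 of 12 settings (adjusted p up to 0.0717) and without Kir2.1 pool 1 (0.0659) and Kir2.1 pool 4 (0.0555).

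Alkal1, a ligand of the receptor tyrosine kinase ALK, was detected in all 4 Kir2.1 pools and in no other pool of the series. The gene thus passed the detection filter only through the pools where it was high, and its adjusted p is no independent support for a rise. It read -10.05, -8.60, -9.34 and -9.41 in the control pools and -4.91, -5.20, -6.31 and -5.19 in the Kir2.1 pools, at least 4.3-fold higher (adjusted p = 0.00116). The call of Alkal1 ended under 1 of 11 settings (adjusted p up to 0.286). In the Wnt and Hedgehog pathways, Rspo3, a secreted enhancer of Wnt signalling, read -2.46, -6.56, -6.38 and -5.04 in the control pools and -9.26, -9.84, -9.63 and -10.26 in the Kir2.1 pools, at least 7.01-fold lower (adjusted p = 0.0174). Smo, the transducer of Hedgehog signals, fell by 0.82 (SE 0.19, adjusted p = 0.0473) with pools tightly grouped at 0.99, 0.81, 1.21 and 1.05 in the control pools and 0.36, -0.01, 0.11 and 0.32 in the Kir2.1 pools. Its second probe gave -0.70 (adjusted p = 0.881). Vldlr, a receptor of reelin, was higher by 2.57 (SE 0.45, adjusted p = 0.0152), at -4.29, -3.08, -3.08 and -2.71 in the control pools and -0.36, -1.26, -0.86 and -0.41 in the Kir2.1 pools. Reln, which encodes reelin itself, a product of mitral cells and the 1 called of 19 mitral and tufted cell markers, was higher by 3.89 (SE 0.74, adjusted p = 0.0209), at -6.45, -7.60, -9.41 and -9.48 in the control pools and -5.43, -3.16, -5.93 and -2.88 in the Kir2.1 pools, with 1 of 4 control and 4 of 4 Kir2.1 pools well above background. The call of Smo ended under 5 of 12 settings (adjusted p up to 0.71) and without 15 of 16 pools (up to 0.0968 without control pool 4), and that of Vldlr under 1 of 12 settings (adjusted p up to 0.0557). The call of Reln ended under 1 of 12 settings (adjusted p up to 0.065) and without control pool 4 (0.0581), Kir2.1 pool 2 (0.0527) and Kir2.1 pool 4 (0.0542).

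Surface molecules and the sugars that decorate them followed. Pcdhb16, a clustered protocadherin, was detected in all 4 control pools and in no Kir2.1 pool, at -4.39, -3.0, -2.53 and -3.75 in the control pools and -10.06, -10.04, -9.84 and -9.18 in the Kir2.1 pools, at least 22.6-fold lower (adjusted p = 0.0124). Its probe may also read close relatives in the same cluster. It was the 1 called of 29 protocadherins. Of 48 tested adhesion genes of the immunoglobulin and integrin families, Cntn1, the axonal adhesion molecule contactin, fell by 1.47 (SE 0.34, adjusted p = 0.0486), with means of 1.15 ± 0.35 in control and -0.31 ± 0.71 in Kir2.1 pools. Opcml, a GPI-anchored adhesion molecule, rose by 2.29 (SE 0.47, adjusted p = 0.0302), from -5.58 ± 1.21 to -3.29 ± 0.29. B4gat1, an enzyme that primes the laminin-binding sugar chain of dystroglycan, read -2.06, -2.81, -4.65 and -3.69 in the control pools and -0.65, -0.62, -0.51 and -0.40 in the Kir2.1 pools. The gene rose by 2.76 (SE 0.45, adjusted p = 0.0103). The Kir2.1 pools lay within 0.25 of each other. Of 53 tested genes of heparan sulfate, chondroitin sulfate and sialic acid synthesis, Chst1, a sulfotransferase of keratan sulfate, rose by 1.55 (SE 0.31, adjusted p = 0.0269) and Csgalnact1, which starts chondroitin sulfate chains, fell by 5.42 (SE 1.19, adjusted p = 0.0385). The median change of that list was -0.57. B3gnt9, a glycosyltransferase, was detected in Kir2.1 pools and not in control pools, at least 4.99-fold higher (adjusted p = 0.0106). The call of Pcdhb16 ended under 1 of 12 settings (adjusted p up to 0.0557), and that of Cntn1 under 5 of 12 settings (adjusted p up to 0.0999) and without 15 of 16 pools (up to 0.113 without control pool 4). The call of Opcml ended under 2 of 12 settings (adjusted p up to 0.0557) and without Kir2.1 pool 1 (0.0781), Kir2.1 pool 2 (0.0536) and Kir2.1 pool 4 (0.0601), and that of Chst1 under 1 of 12 settings (adjusted p up to 0.0744) and without Kir2.1 pool 1 (0.073), Kir2.1 pool 2 (0.0536) and Kir2.1 pool 4 (0.0599). The call of Csgalnact1 ended under 3 of 12 settings (adjusted p up to 0.0998) and without 9 of 16 pools (up to 0.0943 without Kir2.1 pool 1), and that of B3gnt9 under 2 of 12 settings (adjusted p up to 0.266).

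Endosomal sorting, which decides whether a membrane protein is recycled or degraded, held 3 called genes of 61 tested (4.92% against 1.8% of all genes). Vps35, the core subunit of the retromer that returns receptors from endosomes, read -5.82, -4.94, -5.27 and -7.13 in the control pools and -3.46, -3.30, -3.60 and -2.64 in the Kir2.1 pools. The rise was 2.54 (SE 0.45, adjusted p = 0.017). Pdcd6ip, the ESCRT-associated protein ALIX, read -9.06, -5.83, -6.51 and -7.98 in the control pools and -3.25, -2.54, -3.99 and -2.84 in the Kir2.1 pools. This was a rise by 4.19 (SE 0.56, adjusted p = 0.00396), with 2 control pools at background. Its second probe gave 0.68 (adjusted p = 0.602). Ehd3, an ATPase of recycling endosomes, moved the other way, at 0.69, 1.40, 1.44 and 1.62 in the control pools and -0.23, -1.09, -0.35 and -0.35 in the Kir2.1 pools, a fall by 1.79 (SE 0.33, adjusted p = 0.0195). Around the Golgi, Trappc6b, a subunit of the TRAPP tethering complex, read -3.30, -2.35, -4.37 and -3.71 in the control pools and 0.05, -0.33, -0.18 and -1.10 in the Kir2.1 pools. It rose by 3.04 (SE 0.46, adjusted p = 0.0069). Golph3, a phosphoinositide-binding Golgi protein, rose by 2.67 (SE 0.57, adjusted p = 0.0337). Tbc1d12, of the Tbc1 family of Rab regulators (1 called of 27), fell by 1.80 (SE 0.32, adjusted p = 0.017), with means of -0.63 ± 0.23 in control and -2.43 ± 0.47 in Kir2.1 pools. Hps6, a subunit of a complex for lysosome-related organelles, was detected only in control pools and read -2.92, -3.41, -5.21 and -3.39 in the control pools and -9.90, -9.85, -9.65 and -10.26 in the Kir2.1 pools, at least 18.2-fold lower (adjusted p = 0.0269). The call of Ehd3 ended under 1 of 12 settings (adjusted p up to 0.0678) and without control pool 4 (0.0543), and that of Golph3 under 2 of 12 settings (adjusted p up to 0.0821) and without 6 of 16 pools (up to 0.0839 without Kir2.1 pool 1). The call of Tbc1d12 ended under 1 of 12 settings (adjusted p up to 0.0549), and that of Hps6 under 1 of 11 settings (adjusted p up to 0.0998) and without 5 of 16 pools (up to 0.0649 without control pool 4).

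Genes that attach or remove ubiquitin, the tag for protein turnover, changed in both directions. Usp22, the deubiquitinase of the SAGA complex, read -5.23, -4.67, -4.03 and -5.11 in the control pools and -3.03, -2.89, -1.88 and -2.60 in the Kir2.1 pools. The gene rose by 2.16 (SE 0.33, adjusted p = 0.00733). Usp34, another deubiquitinase, fell by 5.02 (SE 1.04, adjusted p = 0.0325). Usp17la, of a family of near-identical copies that a probe may not separate, read -3.41, -3.74, -3.30 and -3.04 in the control pools and -5.36, -4.47, -5.13 and -5.64 in the Kir2.1 pools. The gene fell by 1.78 (SE 0.30, adjusted p = 0.0119). These 3 were the called genes of 43 ubiquitin-specific proteases. Of 92 RING and tripartite motif ligases, 3 were lower and none higher: Rnf128 (-3.70, adjusted p = 0.0325), Rnf207 (-4.69, adjusted p = 0.027) and Rnf112, the neuronal GTPase neurolastin (at least 7.71-fold, adjusted p = 0.0342). Cul3, a scaffold of ubiquitin ligases, rose by 2.68 (SE 0.59, adjusted p = 0.0382), from -5.41 ± 1.0 to -2.73 ± 0.56. Lonrf2, a RING finger protein, read -6.03, -9.09, -7.22 and -9.49 in the control pools and -2.97, -2.87, -3.72 and -3.16 in the Kir2.1 pools. The rise was 4.78 (SE 0.63, adjusted p = 0.00378). The ligase Pja2 was called lower (-2.83, adjusted p = 0.0337) by its tested probe, while its second probe gave 1.48 (unadjusted p = 0.00647), so its direction is unsettled. None of 54 F-box genes was called, with 6 at an unadjusted p under 0.05, although normexp gave 1 higher and 2 lower, 1 was higher in the value table and with scaling over all probes, and signals raised to a floor gave 1 lower. The call of Usp34 ended under 2 of 12 settings (adjusted p up to 0.0916) and without 5 of 16 pools (up to 0.0818 without control pool 4), and that of Rnf128 under 2 of 12 settings (adjusted p up to 0.0733) and without 5 of 16 pools (up to 0.0793 without Kir2.1 pool 1). The call of Rnf207 ended under 1 of 11 settings (adjusted p up to 0.0955) and without 5 of 16 pools (up to 0.064 without Kir2.1 pool 4), and that of Rnf112 under 3 of 11 settings (adjusted p up to 0.0976) and without 7 of 16 pools (up to 0.0809 without Kir2.1 pool 1). The call of Cul3 ended under 3 of 12 settings (adjusted p up to 0.0952) and without 10 of 16 pools (up to 0.0865 without Kir2.1 pool 1), and that of Pja2 under 3 of 12 settings (adjusted p up to 0.412) and without 6 of 16 pools (up to 0.0832 without control pool 4).

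Of 43 tested genes of cyclic AMP signalling, Akap12 and Prkaca were higher and none lower (4.65% against 1.8% of all genes called in either direction), while normexp gave 1 higher and 1 lower. Akap12, a scaffold that anchors protein kinase A, read -3.25, -4.89, -5.16 and -3.84 in the control pools and -0.47, -0.04, -1.11 and 0.55 in the Kir2.1 pools. This was a rise by 4.02 (SE 0.87, adjusted p = 0.036). Prkaca, the catalytic subunit of that kinase, rose by 1.93 (SE 0.39, adjusted p = 0.0269), from -5.44 ± 0.35 to -3.51 ± 0.80. Of 81 protein phosphatase subunits the 1 called was Ppp2r1a, the scaffold subunit of phosphatase 2A, which read -0.01, -0.63, -1.26 and -1.03 in the control pools and 0.45, 0.88, 0.57 and 1.07 in the Kir2.1 pools and rose by 1.48 (SE 0.26, adjusted p = 0.0167). Stk32b, a serine/threonine kinase, was detected in Kir2.1 pools only and rose at least 4.99-fold (adjusted p = 0.00364). Diras2, a small GTPase of the Ras family, fell by 3.55 (SE 0.81, adjusted p = 0.0448). Its Kir2.1 pools read -4.34, -4.63, -1.04 and -4.34, with pool 3 apart from the others. None of 39 kinases of the MAP kinase cascade was called, with 4 at an unadjusted p under 0.05, and 1 was higher with normexp, scaling over all probes, the value table and signals raised to a floor. The call of Akap12 ended under 2 of 12 settings (adjusted p up to 0.125) and without 7 of 16 pools (up to 0.081 without Kir2.1 pool 4), and that of Prkaca under 2 of 12 settings (adjusted p up to 0.0711) and without control pool 1 (0.0549), Kir2.1 pool 2 (0.0542) and Kir2.1 pool 4 (0.0562). The call of Stk32b ended under 1 of 12 settings (adjusted p up to 0.327), and that of Diras2 under 4 of 12 settings (adjusted p up to 0.101) and without 13 of 16 pools (up to 0.106 without control pool 4).

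Mitochondrial genes were described by 2 lists. Of 69 tested genes of mitochondrial dynamics, import and RNA handling, 3 rose and none fell (4.35% against 1.8% of all genes called in either direction), while normexp gave 2 higher and 2 lower and signals raised to a floor 3 higher and 1 lower. Tomm6, a small subunit of the outer membrane import pore, rose by 1.26 (SE 0.23, adjusted p = 0.017) with narrow groups at -1.55, -1.73, -1.95 and -1.87 in the control pools and -0.51, -0.70, -0.32 and -0.53 in the Kir2.1 pools. Timm9, a chaperone of the space between the membranes, rose by 1.80 (SE 0.41, adjusted p = 0.0442), from -1.58 ± 0.72 to 0.22 ± 0.42. Fastkd5, which processes mitochondrial transcripts, was detected in no control pool and read -10.21, -9.13, -8.39 and -7.68 in the control pools and -3.09, -2.29, -2.06 and -6.04 in the Kir2.1 pools, at least 17.6-fold higher (adjusted p = 0.0125). Of 77 mitochondrial ribosomal proteins 2 rose, with 51 of 77 positive and a median change of 0.37. Mrpl40 read -3.50, -3.24, -3.08 and -2.96 in the control pools and -0.93, -0.90, -1.13 and -1.62 in the Kir2.1 pools. The gene rose by 2.05 (SE 0.33, adjusted p = 0.0103), and its second probe rose by 2.00 (adjusted p = 0.0141). Mrpl37 rose by 4.12 (SE 0.86, adjusted p = 0.0325). Msto1, which affects mitochondrial shape and distribution, fell by 2.97 (SE 0.69, adjusted p = 0.0486), with a second probe at -3.12 (adjusted p = 0.0334). Of 63 genes of glycolysis and the citric acid cycle 1 was called, the muscle-type enzyme Pgam2, not well above background in any control pool and at least 1.23-fold higher (adjusted p = 0.0264). The call of Tomm6 ended under 1 of 12 settings (adjusted p up to 0.0557), and that of Timm9 under 2 of 12 settings (adjusted p up to 0.103) and without 13 of 16 pools (up to 0.0996 without Kir2.1 pool 1). The call of Fastkd5 ended under 1 of 12 settings (adjusted p up to 0.0991), and that of Mrpl37 under 4 of 12 settings (adjusted p up to 0.307) and without 6 of 16 pools (up to 0.081 without control pool 4). The call of Msto1 ended under 5 of 12 settings (adjusted p up to 0.112) and without 14 of 16 pools (up to 0.0948 without control pool 1), and that of Pgam2 under 3 of 11 settings (adjusted p up to 0.908) and without control pool 4 (0.0662).

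Defence against oxidative damage held 3 called genes of 52 tested (5.77% against 1.8% of all genes). Mgst3, a membrane-bound glutathione transferase, read 0.94, 1.55, 1.03 and 0.85 in the control pools and -1.39, -0.74, -1.29 and -1.71 in the Kir2.1 pools. The gene fell by 2.37 (SE 0.38, adjusted p = 0.0101), with a second probe at -2.56 (adjusted p = 0.0554). Gpx1, a glutathione peroxidase, was very bright and rose by 1.91 (SE 0.42, adjusted p = 0.0371), from 1.13 ± 0.91 to 3.04 ± 0.63. Nudt1, which removes oxidised nucleotides from the pool, read -7.91, -7.11, -9.73 and -9.78 in the control pools and -4.23, -1.54, -1.19 and -0.76 in the Kir2.1 pools. The rise was 6.70 (SE 1.22, adjusted p = 0.0177), with a second probe that rose by 5.98 (adjusted p = 0.0284). Of 50 tested genes of cell death and neurite degeneration 1 was called, Cast, the inhibitor of the protease calpain, which read -3.85, -2.62, -4.81 and -5.12 in the control pools and -9.75, -7.54, -9.53 and -6.30 in the Kir2.1 pools. The gene fell by 4.18 (SE 0.93, adjusted p = 0.0397). Ei24, a membrane protein of the endoplasmic reticulum, rose by 3.52 (SE 0.74, adjusted p = 0.0333). The call of Gpx1 ended under 2 of 12 settings (adjusted p up to 0.0733) and without 9 of 16 pools (up to 0.0894 without control pool 4), and that of Nudt1 under 1 of 12 settings (adjusted p up to 0.073) and without Kir2.1 pool 4 (0.0507). The call of Cast ended under 2 of 11 settings (adjusted p up to 0.11) and without 11 of 16 pools (up to 0.0956 without Kir2.1 pool 1), and that of Ei24 under 2 of 12 settings (adjusted p up to 0.0733) and without 5 of 16 pools (up to 0.0838 without control pool 4).

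Genes that handle RNA and make protein passed in both directions. Eif3e, a subunit of the initiation factor that brings the ribosome to mRNA, read -3.40, -3.10, -3.43 and -4.10 in the control pools and -1.67, -0.79, -1.62 and -1.43 in the Kir2.1 pools. This was a rise by 2.13 (SE 0.31, adjusted p = 0.0056). Eif2s3x, a subunit of the factor that delivers the initiator tRNA, was higher by 2.06 (SE 0.41, adjusted p = 0.0257), with a second probe at -0.76 (adjusted p = 0.859). These were the 2 called of 74 translation genes. Raly, an RNA-binding protein of the hnRNP type, read -3.06, -2.08, -1.45 and -2.48 in the control pools and 1.31, 1.35, -0.74 and 0.26 in the Kir2.1 pools and rose by 2.81 (SE 0.50, adjusted p = 0.017), a 7.04-fold difference. Of 88 splicing genes, Hnrnpab rose by 1.47 (SE 0.32, adjusted p = 0.0371, second probe 1.14, adjusted p = 0.0435) and Snrpn by 1.60 (SE 0.31, adjusted p = 0.0215). Other probes of Snrpn gave 0.45 (adjusted p = 0.933) and 0.72 (adjusted p = 0.167). Lower were Elavl2, a neuronal RNA-binding protein (-2.57, adjusted p = 0.0372), Papolg, a poly(A) polymerase (-3.18, adjusted p = 0.0269), and the RNA helicases Ddx31 (-5.74, adjusted p = 0.0264) and Ddx55 (-2.16, adjusted p = 0.0442), the 2 called of 45 DEAD and DEAH box genes. The second probe of Ddx31 gave only -0.38 (adjusted p = 0.9445). The call of Eif2s3x ended under 2 of 12 settings (adjusted p up to 0.746) and without 4 of 16 pools (up to 0.0608 without Kir2.1 pool 4), and that of Hnrnpab under 2 of 12 settings (adjusted p up to 0.0769) and without 10 of 16 pools (up to 0.0851 without Kir2.1 pool 1). The call of Snrpn ended under 1 of 12 settings (adjusted p up to 0.47) and without 4 of 16 pools (up to 0.0559 without Kir2.1 pool 1), and that of Elavl2 under 2 of 12 settings (adjusted p up to 0.0923) and without 7 of 16 pools (up to 0.0894 without control pool 4). The call of Papolg ended under 1 of 12 settings (adjusted p up to 0.0733) and without 4 of 16 pools (up to 0.0749 without Kir2.1 pool 1), and that of Ddx31 under 2 of 12 settings (adjusted p up to 0.248) and without 4 of 16 pools (up to 0.0687 without control pool 4). The call of Ddx55 ended under 5 of 12 settings (adjusted p up to 0.0888) and without 15 of 16 pools (up to 0.106 without control pool 4).

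Chaf1b, a subunit of the chaperone CAF-1 that places histones on DNA, had the largest rise among genes detected on all 8 pools. It read -6.65, -5.84, -6.09 and -5.85 in the control pools and -1.43, -0.26, -1.90 and -1.98 in the Kir2.1 pools, so that the groups lay 3.87 apart at their nearest, and rose by 4.72 (SE 0.57, adjusted p = 0.00262), a 26.3-fold difference. A second probe rose by 6.00 (adjusted p = 0.00114). Of 106 tested chromatin genes, Actl6b, the neuronal subunit of the BAF remodelling complex, rose by 1.91 (SE 0.41, adjusted p = 0.036) and Hdac9, a histone deacetylase, fell by 3.95 (SE 0.83, adjusted p = 0.0329). Dot1l, which methylates histone H3, went from -2.33 ± 0.59 to -5.21 ± 0.61, a fall by 2.88 (SE 0.53, adjusted p = 0.0179). Of 104 neuronal transcription factors, Bcl11a rose by 1.26 (SE 0.26, adjusted p = 0.0326) and Emx1 by 2.41 (SE 0.44, adjusted p = 0.0178), both of which act in forebrain projection neurons. Emx1 read -2.61, -4.20, -3.49 and -2.57 in the control pools and -0.73, -0.41, -1.64 and -0.46 in the Kir2.1 pools. Of 281 zinc finger genes of the Zfp series, 3 were called higher and 1 lower: Zfp777 (at least 6.85-fold, adjusted p = 0.0069), Zfp959 (at least 3.71-fold, 0.0385), Zfp664 (1.43, adjusted p = 0.017) and Zfp672 (-3.27, adjusted p = 0.0157). Other probes of Zfp664 (-1.80) and Zfp672 (3.12) and of the chromatin factor Anp32a (-0.27, against 2.71, adjusted p = 0.0379) had the opposite sign. The call of Actl6b ended under 2 of 12 settings (adjusted p up to 0.0912) and without 8 of 16 pools (up to 0.0791 without Kir2.1 pool 1), and that of Hdac9 under 2 of 12 settings (adjusted p up to 0.0934) and without 5 of 16 pools (up to 0.0842 without control pool 4). The call of Dot1l ended under 1 of 12 settings (adjusted p up to 0.0557), and that of Bcl11a under 2 of 12 settings (adjusted p up to 0.0733) and without 5 of 16 pools (up to 0.0788 without Kir2.1 pool 1). The call of Emx1 ended without Kir2.1 pool 4 (0.0507), and that of Zfp777 under 2 of 12 settings (adjusted p up to 0.173). The call of Zfp959 ended under 4 of 12 settings (adjusted p up to 0.346) and without 10 of 16 pools (up to 0.0842 without control pool 4), and that of Zfp664 under 1 of 12 settings (adjusted p up to 0.922). The call of Zfp672 ended under 1 of 12 settings (adjusted p up to 0.981), and that of Anp32a under 3 of 12 settings (adjusted p up to 0.0758) and without 11 of 16 pools (up to 0.0822 without Kir2.1 pool 1).

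Cell cycle and DNA repair genes were among the calls too. Cdkn2b, the cyclin-dependent kinase inhibitor p15, was detected in every control pool and in no Kir2.1 pool and read -3.55, -5.70, -4.75 and -3.33 in the control pools and -8.88, -10.01, -9.78 and -10.40 in the Kir2.1 pools, at least 12-fold lower (adjusted p = 0.00702). Cdk10, a cyclin-dependent kinase, fell by 2.90 (SE 0.66, adjusted p = 0.0442), and Ncapd2, a condensin subunit, by 3.35 (SE 0.70, adjusted p = 0.0329). Rdm1, a protein of the RAD52 type, read -9.20, -8.76, -8.21 and -9.65 in the control pools and -2.80, -2.13, 0.61 and -5.69 in the Kir2.1 pools, at least 32.1-fold higher (adjusted p = 0.0371). Shld2, a subunit of shieldin, which protects DNA ends, was at least 5.8-fold higher (adjusted p = 0.0376). The call of Cdk10 ended under 5 of 12 settings (adjusted p up to 0.129) and without 12 of 16 pools (up to 0.0996 without Kir2.1 pool 1), and that of Ncapd2 under 2 of 12 settings (adjusted p up to 0.078) and without 6 of 16 pools (up to 0.0834 without Kir2.1 pool 1). The call of Rdm1 ended under 4 of 12 settings (adjusted p up to 0.11) and without 8 of 16 pools (up to 0.087 without control pool 4), and that of Shld2 under 3 of 11 settings (adjusted p up to 0.235) and without 8 of 16 pools (up to 0.0894 without control pool 4).

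Further genes were detected in 1 group and not in the other. Iqcb1, the ciliary protein nephrocystin-5, read -10.29, -7.94, -9.55 and -9.62 in the control pools and -1.41, -3.23, -0.72 and -3.98 in the Kir2.1 pools, at least 36.1-fold higher (adjusted p = 0.00419). Ptgis, prostacyclin synthase and the 1 called of 25 prostaglandin and leukotriene genes, read -8.37, -7.66, -8.68 and -9.32 in the control pools and -1.97, -0.69, -6.40 and -2.92 in the Kir2.1 pools, at least 22.8-fold higher (adjusted p = 0.0159). Ccdc80, a secreted matrix protein, was at least 14.1-fold higher (adjusted p = 0.0457), with control pools at -9.38, -9.27, -9.60 and -8.80. The gene 1700048O20Rik read -10.11, -9.07, -9.38 and -9.46 in the control pools and -4.93, -3.96, -5.26 and -2.52 in the Kir2.1 pools, at least 10.1-fold higher (adjusted p = 0.00262). In the other direction, Cpa6, a carboxypeptidase, was at least 21.8-fold lower (adjusted p = 0.0209), Thnsl1 at least 8.72-fold (0.0371) and Gm5434 at least 2.21-fold (0.017). The second probe of Thnsl1 gave -2.43 (adjusted p = 0.455). Apart from these genes, 1190005I06Rik read -3.87, -3.14, -2.24 and -3.89 in the control pools and -10.09, -9.79, -9.85 and -7.43 in the Kir2.1 pools. It fell by 6.01 (SE 0.76, adjusted p = 0.0031). Its Kir2.1 pool 4 lay above the other Kir2.1 pools, and its fall is a fitted value and not a bound. The call of Ptgis ended under 1 of 11 settings (adjusted p up to 0.0527), and that of Ccdc80 under 3 of 11 settings (adjusted p up to 0.157) and without 13 of 16 pools (up to 0.0978 without Kir2.1 pool 4). The call of 1700048O20Rik ended under 1 of 12 settings (adjusted p up to 0.13), and that of Cpa6 under 1 of 11 settings (adjusted p up to 0.0711) and without control pool 4 (0.0521), Kir2.1 pool 1 (0.0559) and Kir2.1 pool 4 (0.0548). The call of Thnsl1 ended under 3 of 11 settings (adjusted p up to 0.112) and without 9 of 16 pools (up to 0.0758 without Kir2.1 pool 1), and that of Gm5434 under 2 of 11 settings (adjusted p up to 0.214).

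**Figure D4:**
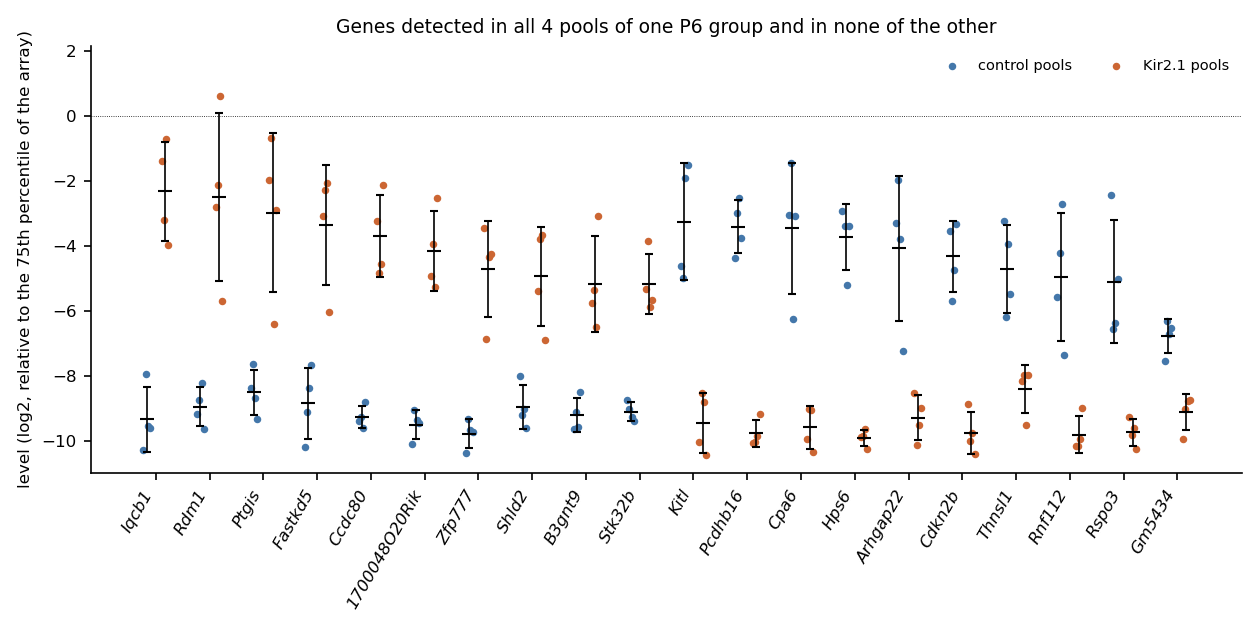
Log2 level (y axis) in each control pool (blue) and Kir2.1 pool (orange) of 20 genes, the 10 with the largest bound in each direction, whose tested probe was well above background in all 4 pools of 1 group and in none of the other, with mean and SD in black. The dim group lay between about -10.4 and -7.66 in all 20 genes, while the bright group spread widely, for example at -1.97, -0.69, -6.40 and -2.92 in Ptgis.

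The lowest p of all belonged to Lhfp, which encodes a tetraspan membrane protein. It read -4.90, -5.07, -3.77 and -4.90 in the control pools and -1.34, -0.70, -1.09 and -0.88 in the Kir2.1 pools and rose by 3.66 (SE 0.28, adjusted p = 8.38e-05), a 12.6-fold difference, with 2.43 between the nearest pools of the groups. Eola1 (2.55, adjusted p = 0.0397) and BC005624 (2.98, adjusted p = 0.0423) were higher and Zcchc12 (-2.97, adjusted p = 0.0371) was lower among the largest changes on all 8 pools. The call of Eola1 ended under 2 of 12 settings (adjusted p up to 0.111) and without 10 of 16 pools (up to 0.0857 without Kir2.1 pool 4), and that of BC005624 under 2 of 12 settings (adjusted p up to 0.0965) and without 11 of 16 pools (up to 0.104 without control pool 4). The call of Zcchc12 ended under 3 of 12 settings (adjusted p up to 0.104) and without 10 of 16 pools (up to 0.0769 without Kir2.1 pool 1).

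A second probe for the same gene gave a check on the probes, though not on the pools. Of 43 other tested probes for 39 called genes, 31 (72.1%) had the sign of the called probe, against 1901 of 2940 (64.7%) over all genes with several tested probes. At an unadjusted p under 0.05, 17 of the other probes of called genes had the same sign and 2 the opposite sign, those of Pja2 and Asph. The second probes of 10 genes (Chaf1b, Abcc8, Arpc5, Nudt1, Mrpl40, Msto1, Hnrnpab, Masp2, S100a1 and Isca1) passed the adjusted threshold themselves, in the same direction.

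The same comparison at P3, made in other pools on another slide, asks whether the changes were already present 3 days earlier. Of the 217 genes, 133 (61.3%) had the same sign at P3, against 6353 of 12035 (52.8%) over all tested genes. Their median size was 2.57 at P6 and 0.56 at P3. The 217 were chosen for their change at P6, which by itself favours a larger size at that age. Over all tested genes the median size was 0.72 at P6 and 0.48 at P3. At P3 the groups did not overlap in the same direction in 29 of the 217 genes and in the opposite direction in 8. Over all 12035 tested genes these counts were 421 and 288. The difference between the changes at P6 and P3 was tested directly and was called in 9 genes (0.0748% of those tested), all of them also called at P6, and 1266 genes had an unadjusted p under 0.05.

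Of these 9 genes, 7 were well above background on all 8 P3 pools, and in 6 of the 7 the change had opposite signs at the 2 ages. Chaf1b lay at -2.57, -1.63, -0.45 and -1.55 in P3 control pools and at -4.13, -2.53, -1.58 and -3.37 in P3 Kir2.1 pools, so that the difference of changes was 6.07 (adjusted p = 0.0111). The P6 control pools, at -6.65, -5.84, -6.09 and -5.85, lay below all 12 other pools of the series. Lhfp, the exception in sign, lay at -0.75, -0.57, -0.83 and -0.51 and -0.08, -0.10, -0.22 and 0.16 at P3, a change of 0.61, and the difference was 3.05 (adjusted p = 0.00983). In this gene too the P6 control pools lay below all 12 others. Raly read -0.10, -0.55, -0.53 and -0.23 and -2.74, -2.73, -1.70 and -1.23 at P3 (difference 4.56, adjusted p = 0.0272), Usp17la -4.64, -4.54, -4.64 and -4.46 and -4.15, -3.90, -3.04 and -3.47 (-2.71, 0.0272), and Smo -0.33, -0.26, -0.25 and -0.25 and 0.69, 0.27, 0.51 and 0.71 (-1.64, 0.0362). The difference in Zfp664 was 2.21 (adjusted p = 0.0362). In 1700048O20Rik (adjusted p = 0.0117), Iqcb1 (0.0272) and Alkal1 (0.00983) the P6 control pools were at background, so the size of the difference is not measured. In Alkal1 every P3 pool was at background as well, and in Iqcb1 all P3 pools except 2 control pools were, so no sign at P3 is read in Alkal1 and Iqcb1. Alkal1 entered the test only through the P6 Kir2.1 pools, so its adjusted p is no independent support for a difference. Between 4 and 22 genes were called for this difference without 1 pool, and age and slide cannot be told apart, since each age was on its own slide.

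**Figure D5:**
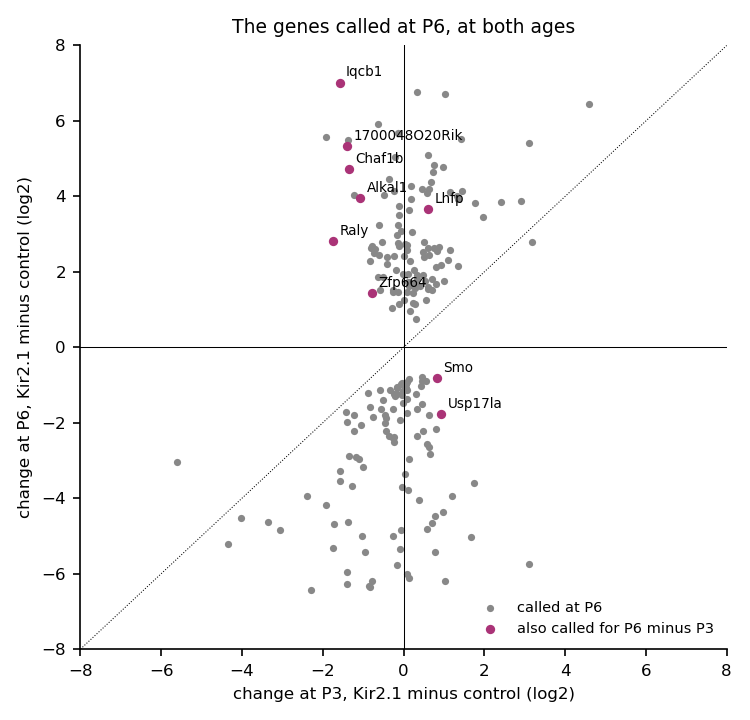
Change with Kir2.1 (log2) at P3 (x axis) and at P6 (y axis) for the 217 genes called at P6, with the 9 genes called for the difference between the ages in purple and named and the dotted line marking equal change. Sizes at P6 (median 2.57) exceed those at P3 (median 0.56), but the genes were chosen for their change at P6. Of the 7 named genes that were well above background on all 8 P3 pools, 6 lie on opposite sides of 0 at the 2 ages. Alkal1 and Iqcb1 were not, and the position of genes at background in a group is no measured size.

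Promoters were searched for the cyclic AMP response element, the binding site of CREB, a transcription factor that calcium and cyclic AMP regulate in neurons, because calcium exchanger and cyclic AMP genes were among those called. The motif was TGACGTCA, which reads the same on both strands, within 250 bases before and 50 after the start of each gene in the RefSeq table of GRCm38.p6. It was present in 588 of 32851 promoters (1.79%). Counted by gene, with the motif in any promoter of the gene, it was present in 338 of 9612 tested genes (3.52%). The share of promoters and the share of genes are not in the same unit. Of genes called higher with a promoter in the table, 4 of 93 (4.30%) held it, and of those called lower 3 of 79 (3.80%), shares near that of the tested genes. The 7 genes were Pak1, Mlf2, Golph3 and Gusb (higher) and Cdkn2b, Clcn3 and Scg2 (lower). The 4 with the lowest p are shown 5′ to 3′ on the strand of the gene, with the motif in capitals, to show where it stands: Cdkn2b (chr4:89310983-89311282, minus strand, motif from -46 relative to the start), Mlf2 (chr6:124931138-124931437, plus strand, from -9), Clcn3 (chr8:60983262-60983561, minus strand, from 10) and Pak1 (chr7:97788291-97788590, plus strand, the first of 2 copies from -234).
Cdkn2b: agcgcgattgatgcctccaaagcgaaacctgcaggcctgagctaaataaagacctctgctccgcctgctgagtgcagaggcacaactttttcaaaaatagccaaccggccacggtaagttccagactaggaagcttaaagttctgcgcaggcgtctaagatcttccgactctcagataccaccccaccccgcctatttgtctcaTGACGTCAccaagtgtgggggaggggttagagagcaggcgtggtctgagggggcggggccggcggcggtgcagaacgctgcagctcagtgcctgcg
Mlf2: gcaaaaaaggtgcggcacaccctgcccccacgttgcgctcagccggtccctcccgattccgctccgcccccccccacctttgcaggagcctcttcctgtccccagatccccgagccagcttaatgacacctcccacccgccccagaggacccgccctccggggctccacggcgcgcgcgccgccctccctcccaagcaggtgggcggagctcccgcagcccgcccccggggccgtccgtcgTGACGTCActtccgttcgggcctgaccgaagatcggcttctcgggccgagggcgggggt
Clcn3: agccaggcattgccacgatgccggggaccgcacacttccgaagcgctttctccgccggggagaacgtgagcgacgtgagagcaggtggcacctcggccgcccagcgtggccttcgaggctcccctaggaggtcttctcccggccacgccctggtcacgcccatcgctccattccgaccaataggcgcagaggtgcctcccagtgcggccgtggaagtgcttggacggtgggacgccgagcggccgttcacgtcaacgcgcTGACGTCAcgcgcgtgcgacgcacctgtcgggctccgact
Pak1: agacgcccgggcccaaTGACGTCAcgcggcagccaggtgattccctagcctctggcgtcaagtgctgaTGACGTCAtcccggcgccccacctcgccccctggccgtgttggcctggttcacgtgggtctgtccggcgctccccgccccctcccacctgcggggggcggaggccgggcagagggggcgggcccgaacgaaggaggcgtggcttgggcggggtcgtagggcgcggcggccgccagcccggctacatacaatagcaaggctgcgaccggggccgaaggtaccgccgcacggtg
Clcn3, a chloride-proton exchanger of endosomes and synaptic vesicles, fell by 2.23 (adjusted p = 0.019), and Mlf2 rose by 1.03 (adjusted p = 0.0174), with the groups of pools apart in both. The other probe of Clcn3 had the opposite sign (0.56). The call of Clcn3 ended under 2 of 12 settings (adjusted p up to 0.196) and without control pool 4 (0.0509) or Kir2.1 pool 1 (0.0562). That of Gusb ended under 4 of 11 settings (up to 0.32) and without any 1 of 11 pools (up to 0.0872). Among genes named for their second probes, the call of Asph ended under 1 setting (0.884) and that of S100a1 under 2 (up to 0.0993) and without any 1 of 6 pools (up to 0.0838). These letters describe the sequences, and binding was not measured.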

How the data were processed

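Each of the 16 arrays held the pooled cDNA of 10 cells. Per the file headers, the authors' 1-colour scans were read with Agilent Feature Extraction on a design built on mm9 (version 10.7.3.1, per the submitters' processing notes), and the deposited processed intensity is background-subtracted and linear. The deposited value table, used as an alternative, holds a signal that equals that intensity after division by a constant per array. Flagged outlier spots and control spots were left out, and spots of a probe were averaged. Probes were named through RefSeq accessions: 26546 of 55681 had a symbol. Each array's log2 intensity was set against its 75th percentile over the 12103 probes well above background on all arrays. Features well above background on at least 4 of 16 arrays were kept, 12035 named genes (1 probe each) and 9035 unnamed probes. A gene detected only in the 4 pools of 1 group passed this filter through that group alone.

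The 4 groups were fitted together in limma 3.58.1 (R 4.3.3) without a block, and p-values were adjusted by Benjamini-Hochberg over all 21070 features. Scripts were tested on simulated data. Where every array of a group left a gene at background, its fold is given as "at least": the bright group's mean over the higher of the dim probe's signal and the lowest signal called well above background on each array. The genes named were those with the largest change or bound, the lowest p or the lowest p for the difference between ages. These had to be called, with groups of pools that did not overlap. Named without that condition were list members past the threshold, fixed marker genes, and members with the CREB motif chosen after the values were seen. The comparison and the lists were chosen with earlier results of these data known. Promoter sequences are RefSeq's on GRCm38.p6. The normexp alternative (offset 50) used the median spot intensity. Results for a few genes are not reported here.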

Additional observations from a re-analysis of the deposited data

Results flagged for a closer look

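Single pools that stood apart from the other 3 of their group were looked for in 242 groups of 4, and 12 were found where chance gives about 1 in 20. Among genes higher with Kir2.1 these were Lhfp in control pool 3 (-3.77), BC005624 in Kir2.1 pool 4 (-2.82), Opcml in control pool 4 (-7.37) and Mrpl37 in Kir2.1 pool 2 (-2.60). Among genes lower with Kir2.1, the pool lay nearer to the control level than its group in Abcc8 (Kir2.1 pool 4, -2.02), Diras2 (Kir2.1 pool 3, -1.04) and 1190005I06Rik (Kir2.1 pool 4, -7.43). The other pools apart were those of Scg2 (Kir2.1 pool 1, -5.52), Thnsl1 (Kir2.1 pool 3, -9.51), Ehd3 (Kir2.1 pool 2, -1.09) and Ddx55 (Kir2.1 pool 3, -7.53). The mean log2 level of astrocyte and radial glia markers was lowest in Kir2.1 pool 1 (-4.92).

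The change with Kir2.1 at P6 minus that at P3 passed limma's test in 9 genes. It was positive in Iqcb1 (8.60), 1700048O20Rik (6.74), Chaf1b (6.07), Alkal1 (5.02), Raly (4.56), Lhfp (3.05) and Zfp664 (2.21), and negative in Usp17la (-2.71) and Smo (-1.64). All P6 control pools were at background in Iqcb1, 1700048O20Rik and Alkal1, and so were all P3 pools in Alkal1 and all but 2 of them in Iqcb1. The values of these 3 genes are fitted differences and not measured sizes.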

How the results depend on the processing

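The number of genes called was 426 with normexp, 374 with trended and robust moderation, 114 with no filter, 62 with one variance factor per group and 10 from the P6 arrays alone, and it lay between 105 and 225 when 1 pool was left out. Genes higher numbered 181 with trended and robust moderation, 59 with no filter, 40 with one variance factor per group, 6 from the P6 arrays alone, and 45 to 132 without 1 pool. Genes lower numbered 286 with normexp, 63 with scaling over all probes and with the value table, 162 with signals raised to a floor, 170 with a filter at 4 of the 8 P6 arrays, 193 with trended and robust moderation, 55 with no filter, 22 with one variance factor per group, 4 from the P6 arrays alone, and 46 to 101 without 1 pool. The difference between ages was called in 29 genes with normexp, 58 with trended and robust moderation, 15 with a filter at 8 of 16 arrays, and 4 to 22 without 1 pool. With the replicate block, 26 genes were called, 16 higher and 10 lower, and 0 for the difference between ages, where 1229 had an unadjusted p under 0.05 by limma. Deviations of same-numbered pools from their group means were nearly uncorrelated (-0.028 to 0.031), as were those of other pairs (-0.048 to 0.050). These values do not settle whether the replicate numbers pair the pools. Of 3380 values of named genes under other settings, 2529 kept their side of the threshold, 835 lost the call and 14 gained it. Among named genes called in the joint fit or in the other setting, only Pgam2 with normexp (-0.051) and Zfp664 with the mean of its probes (-0.18) changed sign. Sign changes of genes called in neither were not counted. The cause of these shifts was not tested. Only 34.3% to 41.1% of the probes of a P6 array were well above background, and a gene at background in a group has only a bound.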

Other observations

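Some gene families had no called member and a negative median change with Kir2.1, against a median of -0.09 over all genes. Of 17 phospholipases C and diacylglycerol kinases, which make or remove diacylglycerol, 13 were negative, with a median of -1.19 and 5 members (29.4%) at an unadjusted p under 0.05 by limma, against 17.2% of all genes. With normexp that median was -0.49, against -0.20 over all genes. Of 12 synaptotagmins and extended synaptotagmins, calcium sensors and membrane tethers, 10 were negative (median -0.74, 4 at that p, or 33.3%). Of 26 semaphorins and plexins, guidance molecules and their receptors, 15 were negative (median -0.40, 5 at that p, or 19.2%). With normexp 1 semaphorin or plexin was called lower. Ephrins and Eph receptors, another guidance family, had 7 of 17 negative (median 0.15, 1 at that p).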
